A study of Mus musculus with 4 samples.

Results

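The DNA replication machinery was followed here as 52 genes chosen by function: origin licensing, the replicative helicase and its activators, the replicative polymerases, the sliding clamp and its loader, single-strand binding, lagging strand maturation, nucleotide supply and the copying of chromatin. A gene entered through the probe sets (groups of short probes for one transcript) that the platform annotation gives to that gene alone, and 51 of the 52 had at least 1 such probe set among the 18193 genes tested. Chaf1a, the large subunit of chromatin assembly factor 1, had none and was not analysed here. The cells were mouse embryonic fibroblasts (MEFs), which are primary cultures of minced torsos of embryos taken 13.5 or 14.5 days after coitus, kept at 6% oxygen and harvested at passage 2 to 3. Lines 2 and 4 were Pf1 -/- (KO below) and lines 5 and 6 were Pf+/+ (WT below). All 4 lines share the prefix 7706, and each was hybridised to 1 Affymetrix array. Pf1, encoded by Phf12, is a PHD finger protein that works with Sin3 and histone deacetylase corepressor complexes, and the series asks about its part in nucleolar integrity. The sources used here do not say how the allele was made, or which line was at which passage or embryonic day.

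Replication starts when the origin recognition complex (ORC), with Cdc6 and Cdt1, loads the ring of Mcm2 to Mcm7 onto DNA in G1. Kinases and the factors Cdc45, GINS and Mcm10 then turn the ring into a running helicase, and polymerases, the clamp PCNA, flap endonuclease and ligase copy the strands. Many of these genes are transcribed under the control of E2F factors and Rb proteins as cells enter S phase, and their transcripts are scarcer in resting fibroblasts than in dividing ones.

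Values are log2 expression centred per probe set on the median of the 4 arrays, so 0 is the middle of the lines and a level cannot be compared between genes. For the same reason the fibroblast identity of the cultures could not be checked from signal levels. For a gene with 1 probe set, the 2 middle lines lie equally far from 0 by construction. Differences are KO minus WT on the log2 scale with the standard error (SE) of the limma fit, for n = 2 lines per genotype. A gene was called when its Benjamini-Hochberg adjusted p, taken over all 18193 genes, was under 0.05. Nothing in the labels says that the lines came from separate embryos, so the p-values speak for the spread among these 4 cultures alone. In a bulk culture, fewer cells in S phase and less of a transcript per cell cannot be told apart. The number of arrays limits the precision throughout.

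The targeted gene was examined first. Phf12 probe set 1434922_at stood at -0.37 and -0.41 in the KO lines, against 0.56 and 0.37 in the WT lines (difference -0.86 ± 0.109 SE, limma adjusted p = 0.0213 over all probe sets). The other Phf12 probe set, 1453579_at, stood at -0.0047 and 0.0047 in the KO lines, against 0.051 and -0.075 in the WT lines (limma adjusted p = 0.965). The mean of both, the measure used for every other gene, differed by -0.42 ± 0.0934 SE and just missed the threshold (limma adjusted p = 0.0504), with both KO lines below both WT lines. Neither probe set is placed against the deletion in the sources used here, so a small difference in one does not bear on the genotype. Among the replication genes, WT line 5 lay apart from the other 3 lines.

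Of the 51 measured replication genes, 8 rose in the KO lines and 0 fell (limma), against 5.21% of all genes called higher and 6.95% called lower. The 8 were 4 of the 6 ORC genes (Orc1, Orc2, Orc4 and Orc6), the GINS subunit gene Gins3, the single-strand binding gene Rpa1, the flap endonuclease gene Fen1 and the chromatin remodeller gene Hells. They make up 15.7% of the measured members. Their differences lay between 0.41 and 1.06, or 1.33-fold to 2.08-fold, with limma adjusted p between 0.018 and 0.0481. At an unadjusted p under 0.05, 16 members were higher and 1, Pold2, was lower, against 14.3% and 15.2% of all genes. Both KO lines lay above both WT lines for 31 members, or 60.8%, where 28.7% of all genes did so. For 4 members (Orc3, Pold1, Pold2 and Lig1) both KO lines lay below both WT lines, or 7.84%, where 29.5% of all genes did so. The difference was positive for 45 members (49.2% of all genes), with a median of 0.27 over the members and -0.0027 over all genes.

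WT line 5 was the low line of the set. The median of the members was 0.045 in KO line 2 and 0.099 in KO line 4, against -0.37 in WT line 5 and -0.023 in WT line 6, while the medians over all genes lay between -0.0057 and 0.0096. Line 5 was below line 6 for all 51 members (51.5% of all genes), by 0.035 to 0.80 with a median of 0.34, and it was the lowest of the 4 lines for 46 of them (30.4% of all genes). WT line 6 was the lowest for 0 (21.8% of all genes). Of the 2 KO lines, line 2 was below line 4 for 32 members (47.8% of all genes), with a median difference of -0.037. The median difference of the members was therefore 0.088 without WT line 5 and 0.41 without WT line 6. Without WT line 5, 35 members had a positive difference, against 45 with all 4 lines. Without any 1 line, none of the 8 calls held. Their differences lay between 0.35 (without WT line 5) and 1.22 (without WT line 6). The sign could not change, since both KO lines lay above both WT lines for each of the 8. Over all genes, those fits called 0 genes without KO line 2, 321 without KO line 4, 1 without WT line 5 and 0 without WT line 6, against 2212 with all 4 lines.

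**Figure D1:**
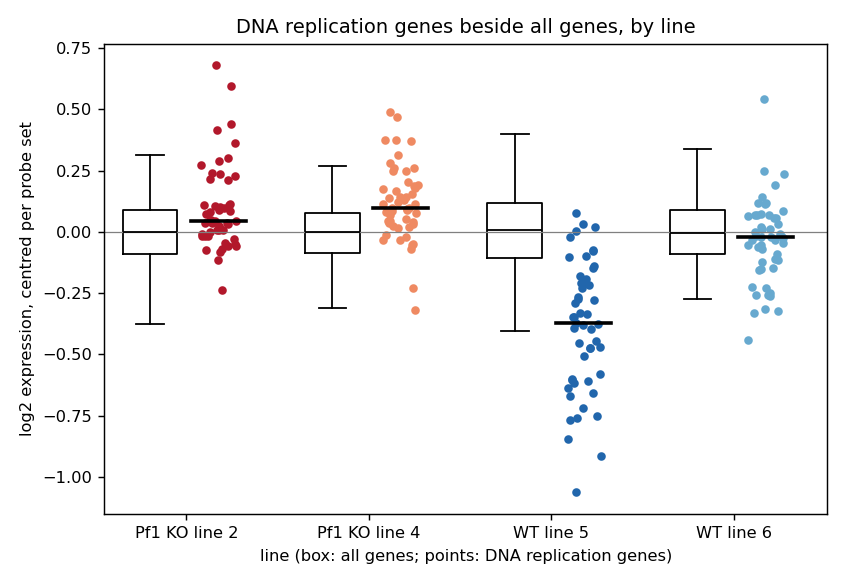
Log2 expression centred per probe set (vertical axis) in each line, with a box for all 18193 genes (quartiles, whiskers at the 5th and 95th percentiles) and points for the 51 replication genes, their median drawn as a bar. The members' medians are 0.045 and 0.099 in the KO lines and -0.37 and -0.023 in WT lines 5 and 6.

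The markers listed for fibroblasts and for other cell types also differed between lines, the WT lines included. Over 8 macrophage markers, of which 0 were called, the mean was -0.34 and 0.57 in KO lines 2 and 4, against 0.40 and -1.34 in WT lines 5 and 6, and all 8 were higher in line 5 than in line 6. Of all genes, 51.5% were lower in line 5 than in line 6. Of 10 fibroblast markers, 6 were called lower and 0 higher, with means of -0.67 and -0.32 in the KO lines, against 0.80 and 0.25 in the WT lines. Endothelial markers had 1 of 7 called higher and 1 lower, epithelial markers 2 of 7 higher and 1 lower, skeletal muscle markers 1 of 8 higher, and neural (6 measured) and erythroid (4 measured) markers 0. Of all genes, 5.21% were called higher and 6.95% lower. Counts of 1 or 2 in such short lists cannot be set apart from these shares. The part of these cell types in the replication gene values was not tested, and centred values do not show whether a marker is expressed at all.

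The promoter windows of the members were searched for words that E2F factors are known to bind, since the rule that chose the members did not use sequence. The windows are those of RefSeq on GRCm38.p6, 250 bases before to 50 bases after a gene's start, and 44 of the 52 genes had at least 1. The E2F-type words were TTTCCCGC, TTTCGCGC, TTTGCCGC or TTTGGCGC on either strand, which can overlap one another on opposite strands. Of 56 member windows, 18 held at least 1 (32.1%), against 2.26% of all 32851 windows. By gene, 3 of the 8 called members had such a window (Orc1, Gins3 and Hells), and 15 of the 35 members with a window that were not called. CCAAT, on either strand, was in 53.6% of member windows and 37.4% of all windows. The CHR-type words TTTGAA or TTCGAA were in 19.6% of member windows and 19.2% of all. A match is a description of the letters and not a site. The windows of the 3 called genes are shown with those of Mcm3 and Mcm6, the helicase subunits with such a word that had the highest and the lowest difference, and the E2F-type words stand in capitals. They lie at chr4:108579204-108579503, strand plus (Orc1), chr8:95633309-95633608, strand plus (Gins3), chr19:38930740-38931039, strand plus (Hells), chr1:20820263-20820562, strand minus (Mcm3) and chr1:128359656-128359955, strand minus (Mcm6).
Orc1: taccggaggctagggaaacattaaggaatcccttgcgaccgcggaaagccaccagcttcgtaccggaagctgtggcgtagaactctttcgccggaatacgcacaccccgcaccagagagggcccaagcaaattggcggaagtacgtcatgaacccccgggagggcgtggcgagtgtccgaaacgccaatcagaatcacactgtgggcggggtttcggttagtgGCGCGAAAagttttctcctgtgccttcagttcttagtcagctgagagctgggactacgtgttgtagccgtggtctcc
Gins3: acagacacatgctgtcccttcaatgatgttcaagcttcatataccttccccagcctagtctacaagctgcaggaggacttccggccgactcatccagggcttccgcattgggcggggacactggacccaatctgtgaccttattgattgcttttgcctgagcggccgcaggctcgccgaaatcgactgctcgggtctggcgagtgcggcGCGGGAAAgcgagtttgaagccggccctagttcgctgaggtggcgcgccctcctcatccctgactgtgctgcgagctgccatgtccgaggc
Hells: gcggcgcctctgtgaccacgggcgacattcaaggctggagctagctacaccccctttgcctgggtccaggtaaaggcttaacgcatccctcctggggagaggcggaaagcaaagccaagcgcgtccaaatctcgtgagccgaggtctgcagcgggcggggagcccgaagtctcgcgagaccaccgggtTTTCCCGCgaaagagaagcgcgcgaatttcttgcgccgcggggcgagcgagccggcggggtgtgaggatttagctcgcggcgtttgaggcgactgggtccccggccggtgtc
Mcm3: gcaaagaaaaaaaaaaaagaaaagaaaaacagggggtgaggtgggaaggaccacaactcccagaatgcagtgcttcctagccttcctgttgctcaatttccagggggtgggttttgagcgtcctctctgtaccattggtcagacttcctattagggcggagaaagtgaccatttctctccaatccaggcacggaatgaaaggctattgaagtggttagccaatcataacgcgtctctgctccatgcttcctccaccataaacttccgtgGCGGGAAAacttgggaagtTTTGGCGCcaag
Mcm6: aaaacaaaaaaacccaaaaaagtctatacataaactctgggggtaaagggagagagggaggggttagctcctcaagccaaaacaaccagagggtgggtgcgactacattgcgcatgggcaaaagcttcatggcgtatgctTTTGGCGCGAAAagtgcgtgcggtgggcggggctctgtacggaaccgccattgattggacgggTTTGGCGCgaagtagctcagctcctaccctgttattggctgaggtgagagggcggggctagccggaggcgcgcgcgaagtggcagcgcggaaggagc

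Orc1, Gins3 and Hells have 1 word each, Mcm3 has 2 and Mcm6 has 3, of which 2 overlap. Mcm6 holds the most words of any member window. The windows of Orc2, Orc4, Orc6, Rpa1 and Fen1 hold no such word, and that of Orc3 holds 1. Whether the words bear on the differences was not tested.

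Origin licensing held 4 of the 8 called genes. Orc4, an ATPase-fold subunit of ORC, stood at 0.36 and 0.49 in KO lines 2 and 4, against -0.76 and -0.33 in WT lines 5 and 6. Its difference was 0.97 ± 0.161 SE, limma adjusted p = 0.0287, a 1.96-fold rise. Orc1, the subunit whose ATPase drives licensing and whose protein is turned over through the cell cycle, stood at 0.29 and 0.37 in the KO lines, against -0.75 and -0.32 in the WT lines (0.87 ± 0.158 SE, limma adjusted p = 0.0341). For both genes the KO lines were within 0.13 of each other and the WT lines were apart, with line 5 the lower. The smallest subunit, Orc6, stood at 0.68 and 0.26 in the KO lines, against -0.60 and -0.26 in the WT lines (0.90 ± 0.188 SE, limma adjusted p = 0.0446), with the KO lines apart this time. Orc2, a core subunit that pairs with Orc3, stood at 0.23 and 0.28 in the KO lines, against -0.61 and -0.22 in the WT lines (0.67 ± 0.146 SE, limma adjusted p = 0.0481). All 4 genes had both KO lines above both WT lines. Orc2 and Orc6 narrowly missed the threshold under some other processing choices (limma adjusted p up to 0.0541 and 0.0506).

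The other ORC genes did not pass. Orc3 stood at -0.019 and -0.053 in the KO lines, against 0.02 and 0.055 in the WT lines (-0.073 ± 0.0799 SE, limma adjusted p = 0.621), with all 4 lines close together. Orc5 stood at 0.037 and -0.011 in the KO lines, against -0.21 and 0.011 in the WT lines (0.11 ± 0.105 SE, limma adjusted p = 0.567), so that KO line 4 and WT line 6 changed places and the groups overlapped. Within the complex, then, 4 subunits rose by 1.59-fold to 1.96-fold and the differences of Orc3 and Orc5 lay within 0.11 of 0. Whether the subunits differ from each other was not tested.

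**Figure D2:**
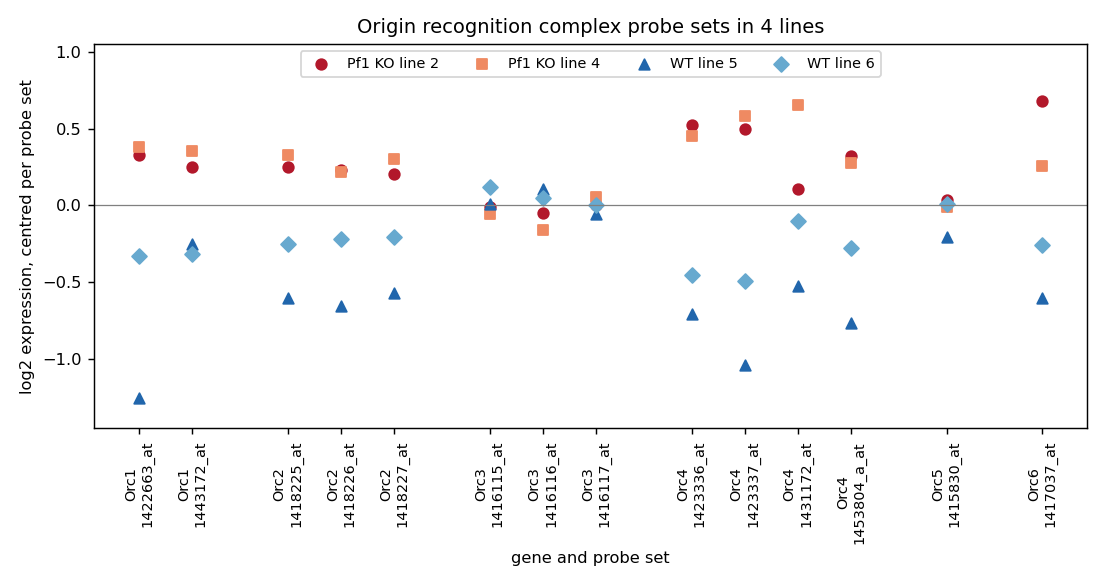
Log2 expression centred per probe set (vertical axis) for the 14 probe sets of the ORC genes (horizontal axis), with 1 symbol per line. Both KO lines lie above both WT lines in all 10 probe sets of Orc1, Orc2, Orc4 and Orc6, while the values of the 4 probe sets of Orc3 and Orc5 lie between -0.21 and 0.12.

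The factors that load the helicase were not called. Cdc6, the ATPase that joins ORC, stood at 0.11 and 0.19 in the KO lines, against -0.91 and -0.11 in the WT lines (0.66 ± 0.265 SE, limma adjusted p = 0.178). The KO lines were above both WT lines, but line 5 lay 0.80 below line 6, the widest gap between the WT lines among the members. Cdt1, which brings the Mcm ring, stood at 0.11 and 0.12 in the KO lines, against -0.39 and -0.12 in the WT lines (0.37 ± 0.116 SE, limma adjusted p = 0.109), again without overlap. Geminin (Gmnn), the inhibitor of Cdt1, overlapped between the genotypes (0.16 ± 0.172).

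Of the 6 genes of the Mcm2 to Mcm7 ring, the motor of the replicative helicase, 0 passed the threshold (limma). Without adjustment, 4 were higher and 0 lower at p under 0.05 (limma), against 14.3% and 15.2% of all genes. For 5 of the 6, both KO lines lay above both WT lines (28.7% of all genes). Mcm2 stood at 0.27 and 0.25 in the KO lines, against -0.85 and -0.25 in the WT lines (0.81 ± 0.203 SE, limma adjusted p = 0.0662). Mcm4 stood at 0.24 and 0.25 in the KO lines, against -0.66 and -0.23 in the WT lines (0.69 ± 0.156 SE, limma adjusted p = 0.0536). In both, the KO lines were nearly equal and the WT lines were apart, with line 5 the lower. Mcm2 passed after quantile normalisation and with plain _at probe sets alone (limma adjusted p = 0.0489 and 0.0495). Mcm4 passed after quantile normalisation, with robust eBayes and with array weights (limma adjusted p = 0.0337, 0.0466 and 0.0446). Mcm3 (0.57 ± 0.168), Mcm5 (0.44 ± 0.144) and Mcm7 (0.27 ± 0.157) had smaller differences in the same direction. Mcm6, the remaining subunit, stood at 0.11 and -0.23 in the KO lines, against -0.019 and 0.14 in the WT lines (-0.12 ± 0.142 SE, limma adjusted p = 0.645), with KO line 4 the lowest of the lines. The Mcm2 to Mcm7 proteins work as one hexamer, and whether Mcm6 differs from the other subunits was not tested.

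Among the 8 genes that activate the helicase, only Gins3 was called (5.21% of all genes were called higher). The difference was positive for all 8 (49.2% of all genes). Both KO lines lay above both WT lines for 6 of the 8 (28.7% of all genes). Gins3, also called Psf3, is one of the 4 subunits of GINS, which holds the running helicase together with Cdc45. It stood at 0.22 and 0.18 in KO lines 2 and 4, against -0.27 and -0.15 in WT lines 5 and 6 (0.41 ± 0.0879 SE, limma adjusted p = 0.047). The lines of each genotype were close, so a rise of 1.33-fold passed where larger differences elsewhere did not. Its 2 probe sets disagreed in size: 1429149_at differed by 0.66 ± 0.0916 (limma adjusted p = 0.0239 over all probe sets) and 1453050_at by 0.16 ± 0.125 (limma adjusted p = 0.524), with overlapping groups in the second. With plain _at probe sets alone Gins3 was not called (limma adjusted p = 0.0535). The partner genes Gins1 (0.30 ± 0.155), Gins2 (0.16 ± 0.168) and Gins4 (0.05 ± 0.149) were not called, and Gins2 and Gins4 overlapped. Dbf4, the activator of the Cdc7 kinase, differed by 0.27 ± 0.0931 and Cdc7 itself by 0.18 ± 0.0959. Cdc45 (0.21 ± 0.111) and Mcm10 (0.13 ± 0.0981) had positive differences that did not pass.

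**Figure D3:**
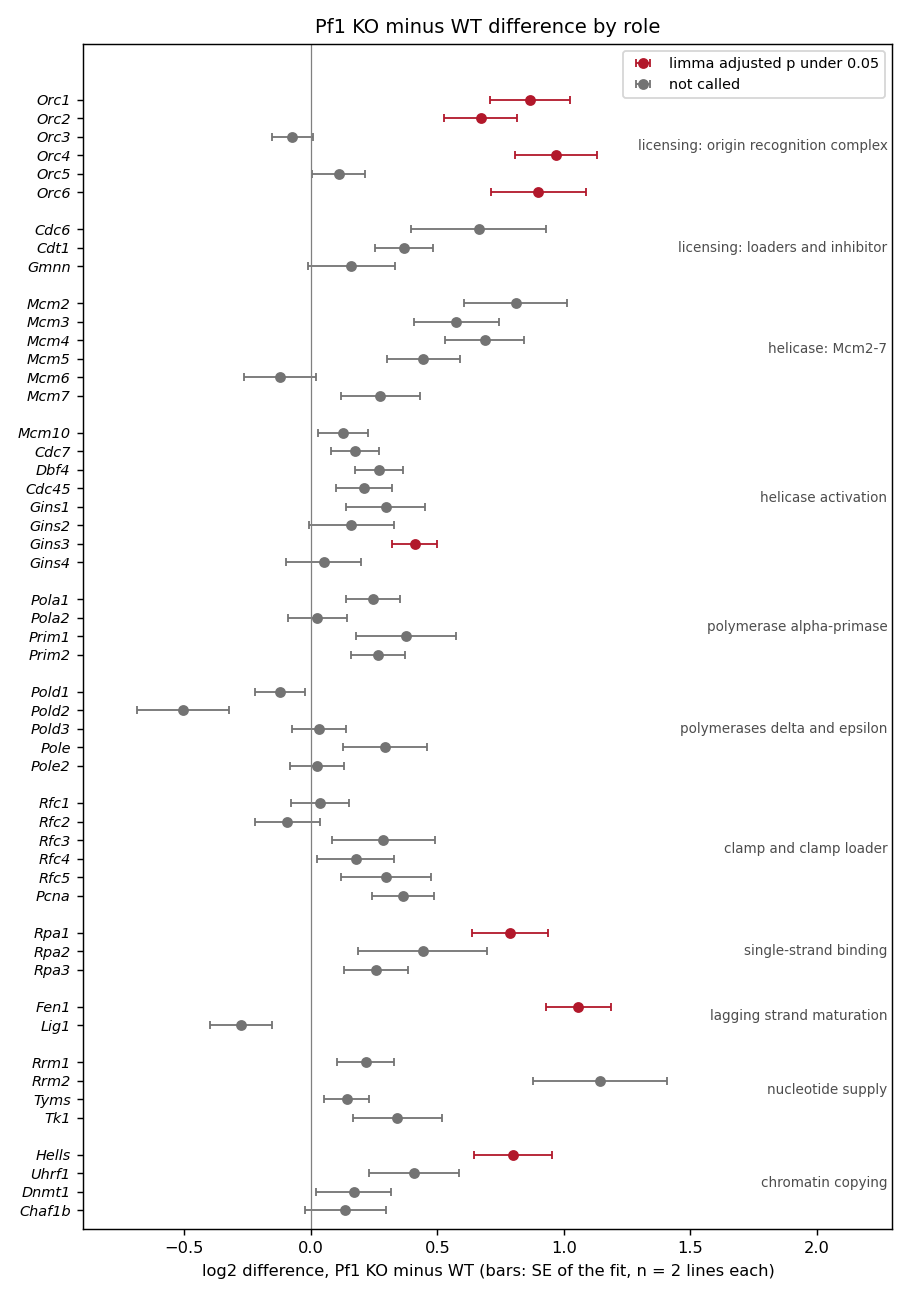
Log2 difference, KO minus WT (horizontal axis, bars are the SE of the limma fit, n = 2 lines per genotype), for the 51 replication genes grouped by role down the page. The 8 called genes, in red, lie between 0.41 and 1.06, Rrm2 at 1.14 has a wide error, and 6 genes lie below 0.

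No polymerase gene among the members was called. Of 4 genes of polymerase alpha-primase, which lays the RNA-DNA primers, 0 passed even at an unadjusted p under 0.05 (limma), with the primase subunits Prim1 (0.38 ± 0.198) and Prim2 (0.26 ± 0.107) and the catalytic Pola1 (0.25 ± 0.106) higher in both KO lines and Pola2 overlapping (0.026 ± 0.116). The genes of polymerases delta and epsilon, which copy the lagging and leading strands, had a median difference of 0.024. Pold2, the accessory subunit of polymerase delta, had the lowest difference of any member and stood at -0.075 and -0.32 in KO lines 2 and 4, against 0.075 and 0.54 in WT lines 5 and 6 (-0.51 ± 0.183 SE, limma adjusted p = 0.146). Both KO lines were below both WT lines, and the WT lines again differed, by 0.47. The catalytic subunit gene Pold1 (-0.12 ± 0.0997) also had both KO lines below both WT lines, Pold3 (0.032 ± 0.105) and Pole2 (0.024 ± 0.106) overlapped, and Pole (0.29 ± 0.167) did not, with KO higher.

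PCNA, the sliding clamp that tethers polymerases, stood at 0.09 and 0.17 in the KO lines, against -0.38 and -0.09 in the WT lines (0.36 ± 0.123 SE, limma adjusted p = 0.128), with no overlap. The 5 subunits of replication factor C, which opens and loads the clamp, all overlapped between the genotypes, with differences from -0.093 (Rfc2) to 0.30 (Rfc5). Rfc3 (0.29 ± 0.204) was split by the KO lines, at -0.068 in line 2 and 0.37 in line 4.

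Rpa1, the large DNA-binding subunit of replication protein A, stood at 0.42 and 0.26 in KO lines 2 and 4, against -0.64 and -0.26 in WT lines 5 and 6 (0.79 ± 0.151 SE, limma adjusted p = 0.0373), a 1.72-fold rise. Both of its probe sets were called (0.84 ± 0.163 and 0.73 ± 0.147). Rpa2 (0.44 ± 0.255) was split by the WT lines, at -0.72 in line 5 and 0.018 in line 6, and overlapped. Rpa3 (0.26 ± 0.128) did not overlap and was not called.

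The 2 genes that finish Okazaki fragments had differences on opposite sides of 0. Fen1, the nuclease that removes the displaced primer flap, had the smallest p of all members and stood at 0.44 and 0.47 in KO lines 2 and 4, against -0.77 and -0.44 in WT lines 5 and 6. Its difference of 1.06 ± 0.129 (limma adjusted p = 0.018) was a 2.08-fold rise, and both probe sets were called (1.31 ± 0.186 and 0.81 ± 0.0974). Lig1, the ligase that then seals the nick, stood at -0.24 and -0.034 in the KO lines, against 0.034 and 0.25 in the WT lines (-0.28 ± 0.122 SE, limma adjusted p = 0.215), with both KO lines below both WT lines. The difference between the 2 genes was not tested.

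In nucleotide supply the largest difference of any member belonged to Rrm2, the small subunit of ribonucleotide reductase, which makes deoxyribonucleotides. It stood at 0.60 and 0.31 in KO lines 2 and 4, against -1.06 and -0.31 in WT lines 5 and 6 (1.14 ± 0.264 SE, limma adjusted p = 0.0549) and so just missed the threshold, with both genotypes spread and line 5 far below. It passed after quantile normalisation and with array weights (limma adjusted p = 0.0426 and 0.0472). One of its 3 probe sets, 1416120_at, was called (1.18 ± 0.238 SE, limma adjusted p = 0.0475 over all probe sets). The large subunit Rrm1 differed by 0.22 ± 0.114, thymidine kinase Tk1 by 0.34 ± 0.177 and thymidylate synthase Tyms by 0.14 ± 0.0879. None of these 3 was called, and in each the KO lines lay above both WT lines.

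Hells, the remodelling helicase that helps DNA methylation through replication, stood at 0.30 and 0.37 in KO lines 2 and 4, against -0.67 and -0.26 in WT lines 5 and 6 (0.80 ± 0.153 SE, limma adjusted p = 0.0373), a 1.74-fold rise. Its probe sets differed: 1430139_at (1.30 ± 0.115) and 1417541_at (0.97 ± 0.19) were called, whereas 1453361_at (0.14 ± 0.18) was not and overlapped. Uhrf1, which recognises hemimethylated DNA and recruits the methyltransferase, differed by 0.41 ± 0.179 without overlap, and that maintenance methyltransferase, Dnmt1, by 0.17 ± 0.149 with overlap. Chaf1b, a subunit of the histone chaperone CAF-1, overlapped (0.14 ± 0.16). These 3 were not called.

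**Figure D4:**
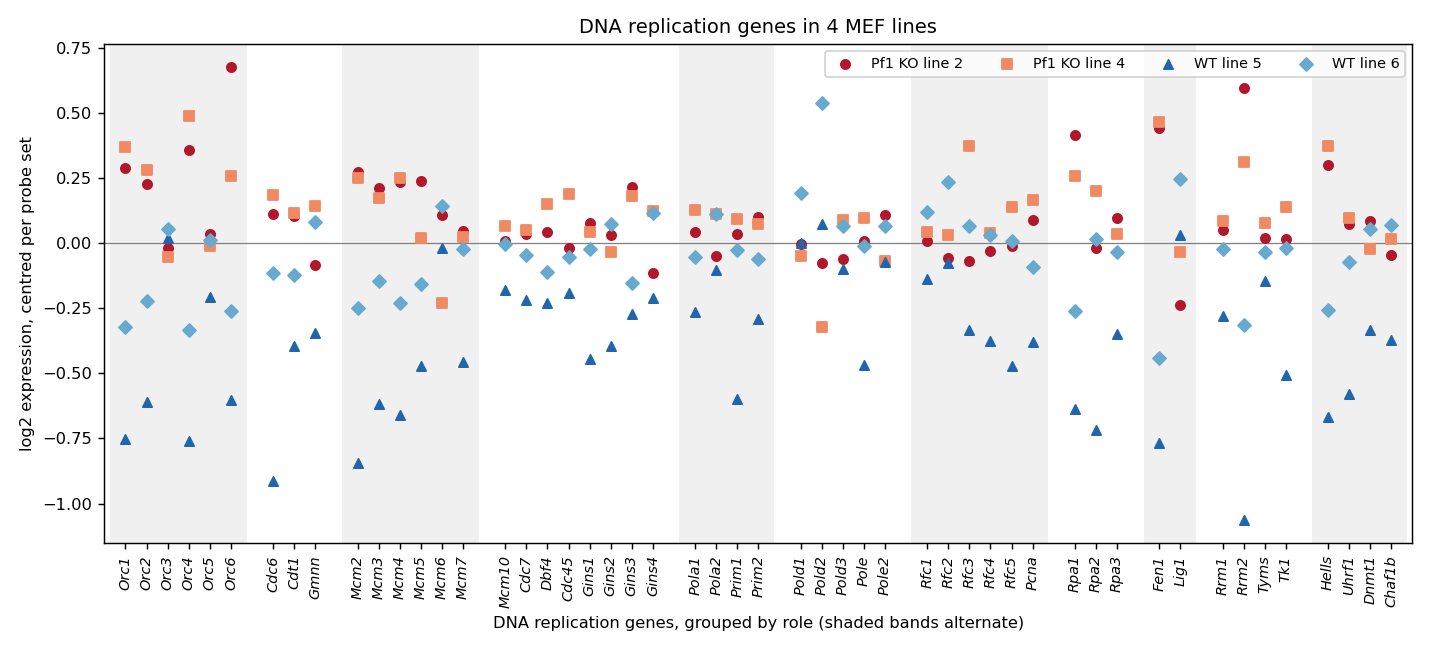
Log2 expression centred per probe set (vertical axis) of the 51 replication genes in the 4 lines, 1 symbol per line, grouped by role along the horizontal axis. WT line 5 is the lowest line for 46 genes, and Orc3, Mcm6, Pold1, Pold2 and Lig1 are the exceptions.

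The size of the difference depended on which WT line was taken. For the 8 called genes, whose KO lines both lie above both WT lines, the KO mean exceeded WT line 6 by 0.35 to 0.90 and WT line 5 by 0.47 to 1.22 from Gins3 to Fen1 in both cases. Over all members, the KO mean was above WT line 6 for 35 (51.2% of all genes) and above WT line 5 for 46 (47.2% of all genes). Against WT line 6, the median distance of the members was 0.088, and against WT line 5 it was 0.41. Cdc6 was 0.26 above line 6 and 1.06 above line 5.

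**Figure D5:**
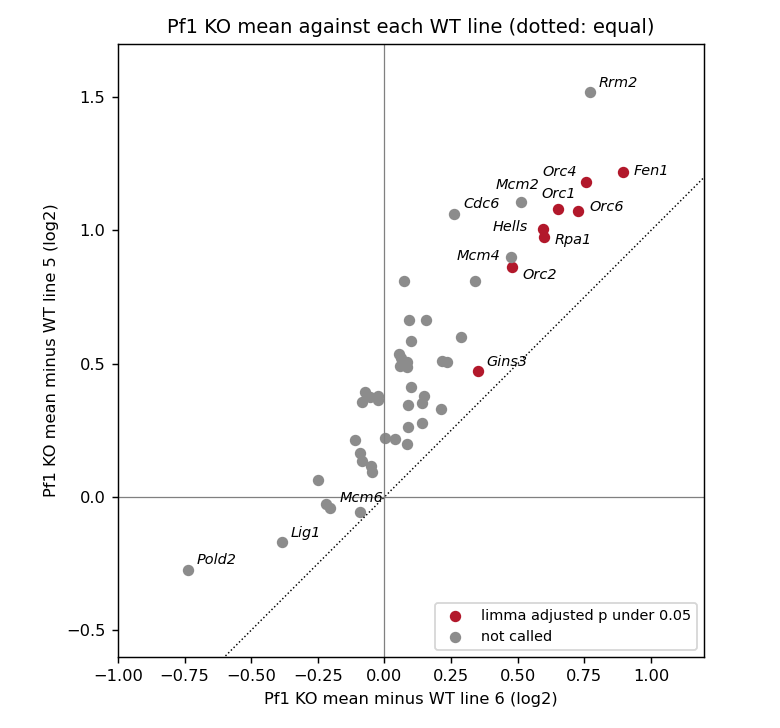
KO mean minus WT line 6 (horizontal axis) and KO mean minus WT line 5 (vertical axis), both log2, with 1 point per replication gene and a dotted line where both are equal. All 51 points lie above the dotted line, since WT line 5 is below WT line 6 for every member, and the 8 called genes are in red.

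Over single probe sets, 12 of the 114 that belong to the members were called higher, or 10.5%, and 0 lower, where 3.92% and 4.4% of all 45037 probe sets were called (limma). Of 39 members with more than 1 probe set, 29 had all of them on one side of 0 and 10 had both signs. No member had called probe sets of both signs. The called probe sets belonged to 8 genes, of which Rrm2 was not called as a gene. Orc6, with 1 probe set, was called as a gene and not in the fit over probe sets (limma adjusted p = 0.0526). The probe sets of Mcm5 show how a gene mean can be pulled: 1415945_at differed by 0.82 ± 0.198, 1436808_x_at by 0.60 ± 0.183 and 1459658_at by -0.092 ± 0.189.

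Of 41 further measured replication genes outside the members (fork protection, origin firing, clamp loader variants, nucleotide enzymes, histone chaperones), 3 rose and 1 fell (7.32% and 2.44%, against 5.21% and 6.95% of all genes), with a median difference of 0.23. The share that rose was near that of all genes, though the difference was positive for 36 of the 41 (49.2% of all genes). Both KO lines lay above both WT lines for 25 (28.7% of all genes) and below both for 3 (29.5% of all genes). Pole3, a histone-fold subunit of polymerase epsilon, stood at 0.28 and 0.39 in the KO lines, against -0.44 and -0.36 in the WT lines (0.74 ± 0.0902 SE, limma adjusted p = 0.018). Chtf8, of an alternative clamp loader, differed by 0.59 ± 0.11 SE, limma adjusted p = 0.036, and Asf1a, a histone H3-H4 chaperone, by 0.39 ± 0.0793 SE, limma adjusted p = 0.0422. Pold4, the smallest subunit of polymerase delta, fell, at -0.42 and -0.31 in the KO lines, against 0.38 and 0.31 in the WT lines (-0.71 ± 0.0891 SE, limma adjusted p = 0.0184). Pole3, Asf1a and Pold4 had close values within each genotype, the WT lines included. In this list, line 5 was below line 6 for 37 of 41 genes (51.5% of all genes) and was the lowest line for 35 (30.4% of all genes).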

How the data were processed

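The deposited table held 45101 probe sets on a log2 scale, made by the authors with Affymetrix Expression Console and RMA, per the submitters' processing notes, which give no versions here. RMA implies the log base. Every probe set's median over the 4 arrays was 0 within 1e-06, so the values had been centred by a step the labels do not describe, which removes signal levels, filters on dim probes and any choice of probe set by brightness. The series text names the A version of the Affymetrix Mouse Genome array, whereas the number of probe sets matched the annotation of the larger, complete version, which was used. No batch or scan date was used here.

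Controls numbered 64, 34945 probe sets had 1 gene and entered, 932 had several and were left out, and 9160 had no gene name here. Symbols were checked against RefSeq (GRCm38.p6) by Entrez identifier (34741 probe sets matched), and 0 needed an update. Probe sets of a gene were averaged (18193 genes, 9010 with more than 1 probe set).

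KO minus WT was fitted without covariates in R 4.3.3 by limma 3.58.1 (lmFit, eBayes, 2 residual and 3.04 prior degrees of freedom), over all genes and again over all 45037 non-control probe sets, and was tested on simulated data. The members and lists were chosen with earlier results of these data known. Named genes were every called member, the highest and lowest difference per role, Phf12 and up to 4 called genes of each other list. Cdkn1a was named beyond these, so that every called regulator of the G1 to S transition is given. Mki67, Top2a, Cdkn1c, Cdkn2a and Cdkn2c, which were not called, were also named outside this rule. Further members were named to complete their complexes, and the promoter windows of Mcm3 and Mcm6 were chosen after their values were seen. Alternatives were the median of probe sets, plain _at probe sets, probe sets of several genes, quantile or median normalisation, robust eBayes, array weights and each line left out.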

Additional observations from a re-analysis of the deposited data

How the results depend on the processing

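With all 4 lines kept, called members numbered 8 in the main fit and 6 with the median of probe sets or with probe sets of several genes included. With plain _at probe sets they numbered 6, of which 5 were among the 8 (7 of the 8 were present) and Mcm2 was gained. They numbered 7 with arrays centred on the median, 9 with robust eBayes, 10 with array weights and 11 after quantile normalisation, always with 0 lower. Orc2 (adjusted p between 0.0504 and 0.0541), Orc6 (0.0503 and 0.0506) and Gins3 (0.0535) were lost in some of these, and Mcm2 (0.0489 and 0.0495), Mcm4 (0.0337, 0.0466 and 0.0446) and Rrm2 (0.0426 and 0.0472) were gained. Leaving out any 1 line (1 residual degree of freedom remains), a fit that assumes the lone line varies like the others called 0 members, 0 of the other replication genes higher and 0 lower, and over all genes 0 to 87 higher and 0 to 234 lower. The share of all genes at an unadjusted p under 0.05 was not taken in those fits, so no count of members is given. The median ranged from 0.088 (without WT line 5) to 0.41 for the members, from 0.16 to 0.35 for the other replication genes and from 0.092 to 0.27 for the mitosis genes. With all 4 lines kept, members without overlap were 26 to 31 higher and 3 to 4 lower. The 26 came from plain _at probe sets, where 45 members were present. The shares of all genes (28.7% higher and 29.5% lower) were taken in the main fit alone. With a line left out, fewer values have to be in order, so no such count is given. Positive differences numbered 35 without WT line 5, against 45 with all lines. The 8 called members had both KO lines above both WT lines, so leaving out a line could not change their sign. For 13 other members, of which 0 were called in any fit, the difference changed sign under at least 1 alternative. Among those named for their role, the differences ranged from -0.084 to 0.36 (Chaf1b), -0.25 to 0.064 (Rfc2), -0.11 to 0.21 (Gins4), -0.29 to 0.047 (Mcm6), -0.055 to 0.37 (Gmnn) and -0.083 to 0.13 (Pola2), and the others were Dnmt1, Gins2, Mcm10, Pold3, Pole2, Rfc1 and Rfc4, between -0.097 (Rfc1) and 0.39 (Gins2). The cause was not tested. No paired analysis was possible because the line numbers are not shared between the genotypes.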

Other observations

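Genes of the steps before and after replication were set beside the members. Of 29 measured mitosis genes, 3 rose (Smc2, 0.83 ± 0.117 SE, limma adjusted p = 0.0215; Cenpe, 0.87 ± 0.132; Mad2l1, 0.49 ± 0.1) and 0 fell (limma; 10.3% rose, against 5.21% of all genes called higher and 6.95% lower), with a median of 0.18. Smc2 is a condensin subunit, Cenpe a kinetochore motor and Mad2l1 a spindle checkpoint protein. In this list too, WT line 5 was below WT line 6 for 25 of 29 genes (86.2%, against 51.5% of all genes). It was the lowest line for 23 (79.3%, against 30.4% of all genes). The proliferation marker Mki67 stood at 0.0006 and 0.33 in the KO lines, against -0.0006 and -0.027 in the WT lines (limma adjusted p = 0.443), and Top2a, the topoisomerase that separates sister DNA, at -0.056 and 0.11 in the KO lines, against -0.18 and 0.12 in the WT lines (limma adjusted p = 0.846), so neither passed. Both were named after their values were seen and do not stand for their lists. The difference was positive for 22 of the 29 mitosis genes (49.2% of all genes). Both KO lines lay above both WT lines for 16 of them (28.7% of all genes) and below both for 2 (29.5% of all genes).

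Of 32 regulators of the G1 to S transition, 2 rose and 3 fell (6.25% and 9.38%), with a median of 0.032. Both shares were near those of all genes (5.21% and 6.95%). The repressor E2f6 rose, at 0.30 and 0.34 in the KO lines, against -0.27 and -0.40 in the WT lines (0.66 ± 0.0899 SE, limma adjusted p = 0.0204), as did the Cdk inhibitor gene Cdkn1a (0.41 ± 0.0881 SE, limma adjusted p = 0.0478). The 3 that fell were also Cdk inhibitor genes, Cdkn1b (-0.50 ± 0.0992), Cdkn2b (-0.65 ± 0.0868) and Cdkn2d (-0.83 ± 0.11). Other genes of this kind, Cdkn1c, Cdkn2a and Cdkn2c, were not called. Cdkn2b stood at -0.33 and -0.29 in the KO lines, against 0.29 and 0.40 in WT lines 5 and 6, which were close to each other. In this list, WT line 5 was below WT line 6 for 23 of 32 genes (71.9%, against 51.5% of all genes). It was the lowest line for 14 (43.8%, against 30.4% of all genes).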
